A study of Homo sapiens with 6 samples.

Results

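The 101 genes described here encode subunits of the oxidative phosphorylation system. They were taken from the 47432 genes of each expression table by annotation alone: protein-coding genes on the mitochondrial chromosome (13 genes) and protein-coding genes whose symbol begins as NDUFA, NDUFB, NDUFC, NDUFS or NDUFV with a number, SDHA to SDHD, UQCR, COX4 to COX8, or ATP5F, ATP5M or ATP5P (88 nuclear genes). The rule uses no expression value. By complex, 37 of the nuclear genes belong to complex I, 4 to complex II, 9 to complex III, 19 to complex IV and 19 to complex V, with NDUFA4, NDUFA4L2 and COX7A2L counted under complex IV. Of the mitochondrial genes, 7 belong to complex I, 1 to complex III, 3 to complex IV and 2 to complex V.

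Oxidative phosphorylation takes place in the inner mitochondrial membrane. Complexes I and II pass electrons from NADH and succinate to ubiquinone, complex III passes them on to cytochrome c, and complex IV hands them to oxygen, while the proton gradient built up on the way drives complex V, the ATP synthase. Complex II is encoded entirely in the nucleus. The other complexes are mosaics, whose core subunits come in part from the mitochondrial genome and whose remaining subunits are imported. The mitochondrial genome is transcribed into long RNAs that are cut into individual mRNAs, so that the mRNAs of the heavy strand arise from a shared precursor. The nuclear genes are transcribed independently of each other.

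RNA-seq was done on LOX-IMVI, an established human melanoma line in which IκBζ, the nuclear NF-κB co-regulator encoded by NFKBIZ, is present without stimulation. The cells had been transduced with lentiviral pLKO.1 carrying a control hairpin (shCtrl) or a hairpin against NFKBIZ (shNFKBIZ), and the methods describe puromycin selection for all transduced melanoma cells. There were 3 libraries per group. The knockdown rests on 1 hairpin construct, and P values measure the spread between these libraries. The labels do not say whether the libraries of a group came from separate cultures, while the study describes its conditions as independent experiments.

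The libraries held 22264473 to 24624839 exon reads. NFKBIZ fell from 70.2 ± 5.23 to 20.4 ± 0.302 CPM (read counts relative to the library size, scaled with TMM factors; SD, n = 3), which is -1.78 on the log2 scale (SE 0.0581, adjusted P = 7.2e-17, edgeR quasi-likelihood test). Of 7 melanocyte lineage markers, 6 were below 1 TPM (a level per length of exon, relative to the library) in every library, and MITF ranged from 1.72 to 3.58 TPM. Their sum was 3.19 to 4.23 TPM in shCtrl and 1.79 to 2.62 TPM in shNFKBIZ. The defining markers of differentiated melanocytes were thus absent or nearly so, whereas AXL, a marker of dedifferentiated melanoma, ranged from 384 to 490.1 TPM. The 5 dedifferentiation markers summed to 447 to 492 TPM in shCtrl and 602 to 614 TPM in shNFKBIZ, and AXL held most of this sum. Of the 5, NGFR and NES stayed below 1 TPM in every library, at no more than 0.113 and 0.332 TPM. The others were AXL, EGFR and SOX9, with shCtrl means of 407, 39.6 and 21.6 TPM. Of 7 markers of other cell types, PTPRC, CD3E, PECAM1 and EPCAM stayed at or below 0.320 TPM. The summed level of these 7 was 127 to 133 TPM in shCtrl and 207 to 210.3 TPM in shNFKBIZ, of which CD68 held 96.6 to 199 TPM. KRT14 had a mean of 0.570 TPM in shCtrl and 1.59 TPM in shNFKBIZ, whereas COL1A1 went the other way, from a mean of 31.0 to 8.85 TPM. The part of these markers in the results was not tested.

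Of the 101 subunit genes, 93 passed the filter on low counts and were tested, all 13 mitochondrial and 80 nuclear ones. A gene was called at an adjusted P of at most 0.05 over the 13843 genes tested. In shNFKBIZ cells 24 subunit genes were higher and 33 were lower, and 36 were not called. The called genes were 61.3% of those tested, beside 65.3% of all genes tested. That is 25.8% higher and 35.5% lower, where the background over all genes tested was 32.5% higher and 32.8% lower. Of the protein-coding genes tested, to which all members belong, 68.7% were called, 32.9% as higher and 35.8% as lower. The share of members that were lower was thus near that of protein-coding genes. No subunit gene changed by 2-fold or more at this threshold in the edgeR test or in DESeq2, and also none at an unadjusted P under 0.05, whereas 8.96% of all genes did so at the adjusted threshold. Most changes were small. A total of 81 of the 93 genes, or 87.1%, had a log2 fold change within ± 0.3, and 6931 of the 13843 genes tested, or 50.1%, lay in that range. The CPM values of both groups did not overlap for 27 genes that were higher and 32 that were lower, against a background of 34.1% and 34.6% of all genes tested.

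The 8 members that did not pass the filter had fewer than 10 reads in every library. They were UQCRHL, ATP5MGL and 6 isoform genes of complex IV, described with the other isoforms.

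Considered by genome of origin, the mitochondrial mRNAs carried most of the reads of the 101 genes. They made up 3.83%, 3.89% and 3.50% of the exon reads in the shCtrl libraries and 3.88%, 3.55% and 3.94% in the shNFKBIZ libraries, so that the groups overlapped. The nuclear subunit genes together took 0.895%, 0.906% and 0.908% of the reads in shCtrl and 0.929%, 0.930% and 0.940% in shNFKBIZ. Those shares did not overlap, but they are relative to all reads of a library, and TMM factors of 0.964 to 0.979 in shCtrl and 1.02 to 1.04 in shNFKBIZ correct for a difference of the same direction. After this scaling the median log2 fold change was -0.02 over the 80 nuclear genes, -0.02 over the 13 mitochondrial genes and 0.00431 over all genes tested. In bulk RNA, fewer cells with a transcript and less of the transcript per cell cannot be told apart.

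Although the total share of mitochondrial mRNA overlapped between the groups, its composition did not. Among the reads of the 13 mRNAs, the 7 MT-ND mRNAs of complex I made up 39.5%, 39.9% and 40.2% in shCtrl and 45.8%, 45.9% and 45.9% in shNFKBIZ. The 3 MT-CO mRNAs of complex IV made up 38.9%, 39.1% and 39.2% in shCtrl and 34.2%, 33.4% and 33.9% in shNFKBIZ. Every shNFKBIZ library was above every shCtrl library for the first share and below for the second. For MT-ATP6 and MT-ATP8 together the shares were 15%, 14% and 14.1% against 13.1%, 13.7% and 13.2%. MT-CYB, the only mitochondrial subunit of complex III, held 6.55%, 6.99% and 6.57% against 6.93%, 7% and 6.93%, and these groups overlapped. Taken gene by gene, the shares of 9 of the 13 mRNAs did not overlap between the groups, 5 of them higher in shNFKBIZ (MT-ND1 to MT-ND5 without MT-ND4L) and 4 lower (MT-CO1, MT-CO2, MT-CO3 and MT-ATP6). Such shares add up to a whole, so that a rise of 1 mRNA lowers the shares of the rest. By CPM, the groups did not overlap for 3 of the 13 mRNAs that were higher and 4 that were lower. The background over all genes tested was 34.1% and 34.6%. MT-ND4 and MT-ND5, separated by share, overlapped by CPM.

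**Figure D1:**
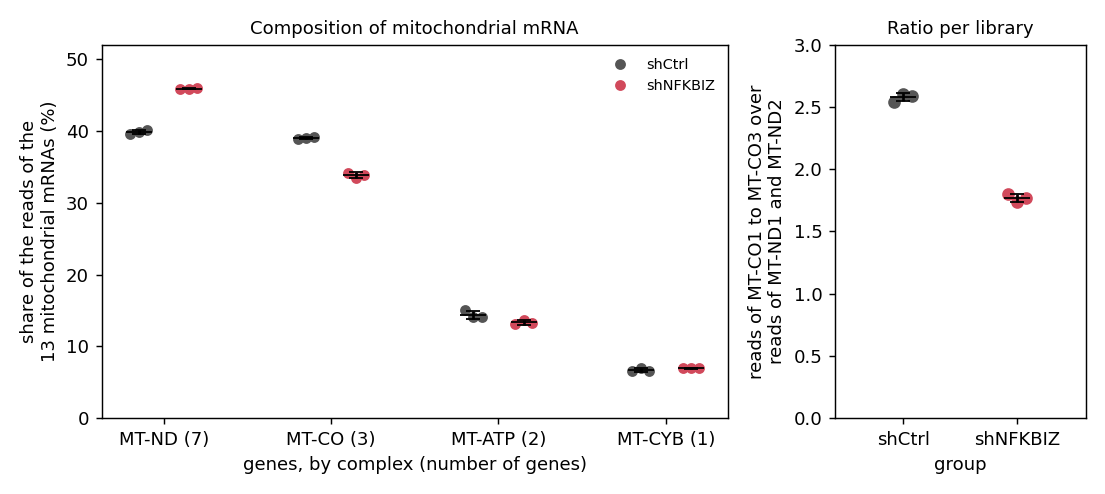
Left, share of the reads of the 13 mitochondrial mRNAs (%, vertical axis) held by the genes of each complex, and right, the ratio of MT-CO1 to MT-CO3 reads to MT-ND1 and MT-ND2 reads, with points for libraries and bars for mean ± SD (n = 3). The MT-ND share lies at 39.5% to 40.2% in shCtrl and 45.8% to 45.9% in shNFKBIZ, and the ratio at 2.54 to 2.60 and 1.73 to 1.80.

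The first protein-coding genes of the heavy strand, MT-ND1 and MT-ND2, and the MT-CO genes went in opposite directions. The genes further along the strand did not all go with the MT-CO genes, as given below. MT-ND1 and MT-ND2, which encode membrane subunits of complex I, lie at positions 3307 to 5511 of the mitochondrial chromosome (hg38), and MT-CO1, MT-CO2 and MT-CO3, the catalytic core of cytochrome c oxidase, lie at 5904 to 9990. The ratio of MT-CO reads to MT-ND1 and MT-ND2 reads was 2.54, 2.60 and 2.59 in shCtrl and 1.80, 1.73 and 1.77 in shNFKBIZ. This ratio does not depend on the scaling between libraries, and all 3 shNFKBIZ libraries were below all 3 shCtrl libraries.

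The tests across all genes use the same reads and are not independent of the ratio above. MT-ND1 had 2477, 2348 and 2233 CPM in shCtrl and 2959, 2651 and 2989 CPM in shNFKBIZ, which is 0.29 on the log2 scale (SE 0.0480, adjusted P = 0.000116, edgeR). MT-ND2 had 3601, 3706 and 3176 CPM against 4250, 3927 and 4369 CPM (0.26, SE 0.0619, adjusted P = 0.00522, edgeR). For both genes every shNFKBIZ library was above every shCtrl library. MT-ND3 was also above in every library, at 702, 676 and 593 CPM against 782, 706 and 831 CPM, but was not called (0.23, SE 0.0916, adjusted P = 0.0762, edgeR). Without shCtrl replicate 1 or without shNFKBIZ replicate 2 it was called (adjusted P = 0.0472 and 0.0246, edgeR), as it was in DESeq2 (0.0440), on unique exon reads (0.0432), with no filter (0.000218) and with library size alone (0.0180), whereas a replicate block gave an adjusted P of 0.209. The remaining heavy-strand genes of complex I, MT-ND4L, MT-ND4 and MT-ND5, had log2 fold changes of 0.08, 0.04 and -0.01, were not called, and overlapped between the groups. Without shNFKBIZ replicate 2, MT-ND4L was called, at 0.19 on the log2 scale (adjusted P = 0.00142, edgeR).

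All 3 mitochondrial genes of complex IV fell. MT-CO3 had 3869, 3883 and 3432 CPM in shCtrl and 2911, 2589 and 2921 CPM in shNFKBIZ, which is -0.41 on the log2 scale (SE 0.0614, adjusted P = 0.000305, edgeR), and was the most changed of the 13 mRNAs. MT-CO2, which holds the first copper centre that receives electrons from cytochrome c, had 3203, 3380 and 2965 CPM against 2729, 2409 and 2715 CPM (-0.28, SE 0.0599, adjusted P = 0.00248, edgeR). MT-CO1, which carries the site of oxygen reduction and was the most abundant of the 13 by reads, had 8384, 8493 and 7606 CPM against 7322, 6403 and 7376 CPM (-0.21, SE 0.0619, adjusted P = 0.0131, edgeR). None of the 3 genes overlapped between the groups. MT-CO1 was not called without shCtrl replicate 2 (adjusted P = 0.0676, edgeR).

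Of the 2 mitochondrial genes of complex V, MT-ATP6, the membrane subunit of the proton channel, had 5356, 5135 and 4593 CPM in shCtrl and 4526, 4231 and 4613 CPM in shNFKBIZ. It was called (-0.17, SE 0.0537, adjusted P = 0.0139, edgeR), although 1 shNFKBIZ library lay above the lowest shCtrl library, and it was not called without shCtrl replicate 2 (adjusted P = 0.0920, edgeR). MT-ATP8 had a value of -0.22 on that scale (SE 0.116, adjusted P = 0.170, edgeR) and was called without shCtrl replicate 3 (-0.32, adjusted P = 0.000480, edgeR). MT-ATP8 shares 46 bases with MT-ATP6, and MT-ND4L shares 7 with MT-ND4, so that reads there could be given to either gene. MT-CYB had a value of -0.02 (SE 0.0756) and was not called.

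MT-ND6 is the only protein-coding gene of the light strand. It had 127, 122 and 128 CPM in shCtrl and 109, 110.1 and 111 CPM in shNFKBIZ, which is -0.20 on the log2 scale (SE 0.0370, adjusted P = 7.24e-05, edgeR), with no overlap. Counting was done without regard to strand, so that heavy-strand RNA across the same positions (14149 to 14673) could not be told apart from MT-ND6 mRNA. As for the ribosomal RNAs of the same chromosome, MT-RNR1 was higher (0.16, adjusted P = 0.0174, edgeR) with overlapping groups, and MT-RNR2 was lower (-0.15, adjusted P = 0.0211, edgeR). The 22 mitochondrial tRNA genes did not pass the filter.

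**Figure D2:**
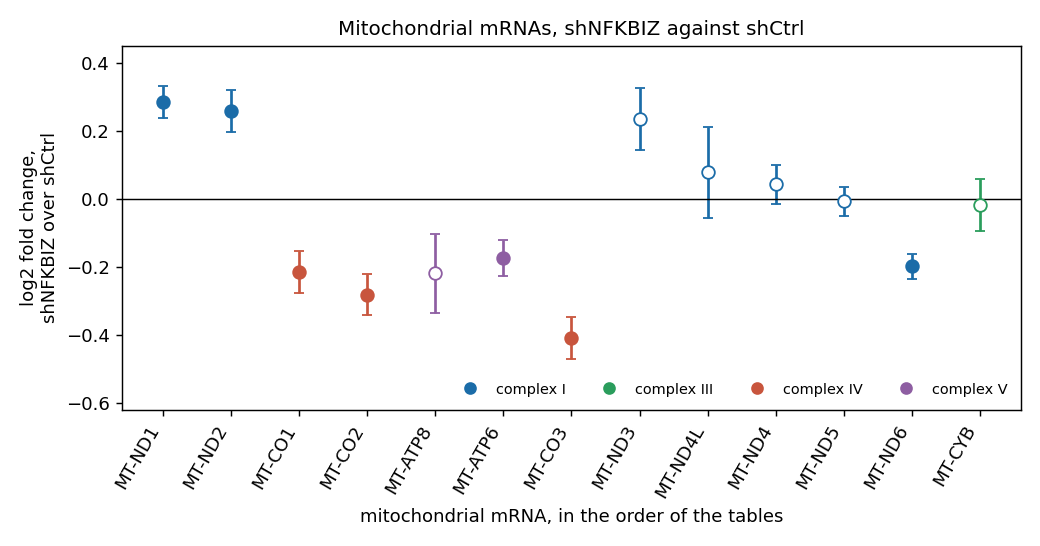
Log2 fold change of CPM, shNFKBIZ over shCtrl (vertical axis), of the 13 mitochondrial mRNAs in the order of the chromosome (horizontal axis), with bars for SE, filled points for genes called and colours for complexes. MT-ND1 and MT-ND2 lie near 0.29 and 0.26, the MT-CO genes between -0.41 and -0.21, and the genes from MT-ND4L to MT-ND5 near 0.

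Per unit of length, the mitochondrial mRNAs stood far above the nuclear ones. In shCtrl the median TPM was 7090 for the 7 mitochondrial genes of complex I, 17752 for those of complex IV and 18523 for those of complex V, with MT-CYB at 8476 TPM. The medians of the tested nuclear genes were 54.0 TPM for complex I, 143 TPM for complex II, 131 TPM for complex III, 264 TPM for complex IV and 154 TPM for complex V. These TPM values divide by the union of all annotated exons, which exceeds the transcript in use for many of the short nuclear genes. With the length of the canonical transcript, the nuclear medians were 152 TPM for complex I, 147 TPM for complex II, 81.6 TPM for complex III, 369 TPM for complex IV and 248 TPM for complex V, and the mitochondrial values were 3991, 9991 and 10426 TPM for complexes I, IV and V and 4770 TPM for MT-CYB. Under both lengths complex IV had the highest nuclear median, and the order of complexes I, II and III differed. Within a complex the levels ranged widely, in complex V from 16.7 TPM for the readthrough gene ATP5MF-PTCD1 to 1875 TPM for ATP5F1B.

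Among the nuclear genes, 22 were higher, 28 were lower and 30 were not called. These shares of 27.5% higher and 35% lower stand beside 32.9% and 35.8% of the protein-coding genes tested. The same background applies to the counts of each complex. The genes of each complex moved in both directions. In complex I, 12 of 37 were higher and 11 lower, with a median log2 fold change of 0.00703. In complex II, 1 of 4 was higher and 2 were lower (median -0.06). Complex III had the lowest share of called genes, 37.5%, beside 68.7% of the protein-coding genes tested. Of its 8 tested genes, 2 were higher and 1 was lower (median -0.01). Complex IV had 1 higher and 6 lower of 13 (median -0.08). Complex V had 6 higher and 8 lower of 18 (median -0.06). No difference between complexes was tested. Scaling by library size alone moved the median of all genes tested to 0.09, and under it 36 of the nuclear genes rose and 14 fell, so the balance between rises and falls depended on the scaling. Under it the 8 largest falls and the 8 largest rises kept their direction and their call. Calls were lost by ATP5F1A, ATP5F1B, ATP5MC3, UQCRH, COX5B, COX6C and COX7C, and were gained, as higher, by SDHA, NDUFV1, UQCRFS1, COX4I1, COX7B and COX7A2L, among the genes named below.

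**Figure D3:**
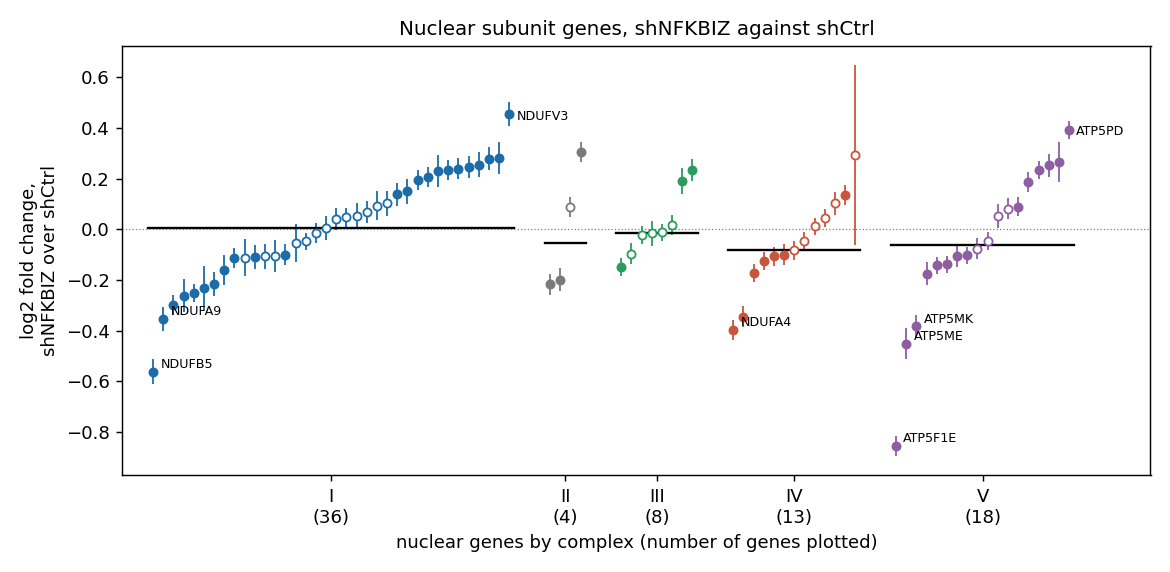
Log2 fold change, shNFKBIZ over shCtrl (vertical axis), of 79 tested nuclear genes ordered by value within each complex (horizontal axis), with bars for SE, filled points for called genes and black lines for the median of each complex. Each complex holds genes on both sides of 0, ATP5F1E is lowest at -0.86 and NDUFV3 highest at 0.45, and NDUFC2-KCTD14 (-2.86, SE 1.35) is not drawn.

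In complex V, ATP5F1E had the largest called fall of all members. It encodes the epsilon subunit of the rotating stalk of the ATP synthase (chromosome 20, 59025475 to 59032345, minus strand). It had 134, 140.4 and 141 CPM in shCtrl and 77.1, 75.1 and 77.3 CPM in shNFKBIZ. On the log2 scale the change was -0.86 (SE 0.0386, adjusted P = 1.97e-14, edgeR), a fall of 44.7%. ATP5ME, a small subunit of the membrane part (chromosome 4, 672436 to 674330, minus strand), had 34.1, 32.1 and 35.8 CPM against 23.3, 26.1 and 25 CPM (-0.45, SE 0.0602, adjusted P = 9.55e-07, edgeR). ATP5MK, also a small membrane subunit (chromosome 10, 103389041 to 103396492, minus strand), went from 83.3 ± 3.35 to 63.9 ± 1.72 CPM (-0.38, SE 0.0436). In none of the 3 genes did a shNFKBIZ library reach the lowest shCtrl library. ATP5F1E overlaps TUBB1 and ATP5ME overlaps MYL5 on the opposite strand. Other members overlap genes as well. Among those named below, ATP5PD overlaps KCTD2 over 8123 bases on the opposite strand, and NDUFS3 overlaps PTPMT1 over 8032 bases on the same strand. NDUFB5, SDHD, NDUFA9 and SDHA each overlap another protein-coding gene of the same strand, over 22841, 33114, 45217 and 38780 bases. NDUFV2 overlaps a long non-coding RNA gene of the same strand over 31610 bases. The part of such overlaps in the counts was not tested.

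In the same complex, ATP5PD, subunit d of the peripheral stalk (chromosome 17, 75038863 to 75046985, minus strand), rose from 128, 124 and 125 CPM to 160.0, 168 and 166 CPM (0.39, SE 0.0363, adjusted P = 3.69e-09, edgeR). ATP5MC1, 1 of 3 genes for the proton-carrying c subunit, rose from 73.1 ± 4.27 to 87.1 ± 2.22 CPM (0.25, SE 0.0452). Of its sister genes ATP5MC2 also rose (0.19) and ATP5MC3 fell (-0.14). The readthrough gene ATP5MF-PTCD1 was called higher (0.26, adjusted P = 0.00603, edgeR) but not by DESeq2 (adjusted P = 0.0603), and with 1.70% of its reads unique its level is uncertain. The alpha and beta subunits changed little. ATP5F1A, the alpha subunit, fell from 579 ± 7.99 to 525 ± 13 CPM (-0.14), and ATP5F1B, the beta subunit that makes ATP, from 1123 ± 14 to 1046 ± 35 CPM (-0.10, adjusted P = 0.0105, edgeR). ATP5F1B was not called without shNFKBIZ replicate 2 (adjusted P = 0.0597, edgeR). Subunits of 1 complex therefore lay between a fall of 44.7% and a rise of 31.3%.

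In complex I, NDUFB5, an accessory subunit of the membrane arm (chromosome 3, 179604690 to 179627647, plus strand), had 66.2, 63.6 and 66.3 CPM in shCtrl and 45.3, 41.7 and 45.9 CPM in shNFKBIZ (-0.56, SE 0.0481, adjusted P = 1.08e-09, edgeR). NDUFB10 of the same arm fell from 98.2 ± 3.28 to 79.9 ± 1.22 CPM (-0.30, SE 0.0402). NDUFA9, at the junction of both arms, fell from 88.5 ± 2.06 to 69.2 ± 5.08 CPM (-0.35, SE 0.0477), with 41.7% of its reads unique to it. NDUFS1, the largest subunit and a carrier of iron-sulfur clusters, fell from 180.1 ± 2.08 to 151 ± 4.07 CPM (-0.25, SE 0.0355, adjusted P = 2.33e-06, edgeR). The groups did not overlap in any of these genes.

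Other subunits of complex I rose. NDUFV3, an accessory subunit of the NADH-binding module (chromosome 21, 42879644 to 42913304, plus strand), had 41.3, 39.5 and 38.6 CPM in shCtrl and 54.4, 55.6 and 53.5 CPM in shNFKBIZ (0.45, SE 0.0477, adjusted P = 2.82e-08, edgeR), the largest rise among the 93 genes. In the same module, NDUFV1, which binds FMN and NADH, had 156 ± 12.6 against 167 ± 6.27 CPM and was not called (0.10, adjusted P = 0.0814, edgeR). NDUFV1 was called in 5 of the 16 tested alternatives. One was the omission of shCtrl replicate 2, the library with its highest shCtrl value (0.17, adjusted P = 0.00129, edgeR). NDUFV2, another subunit of the module, fell (-0.22, SE 0.0478), with 10.7% of its reads unique. NDUFS3, a core subunit of the arm that leads to ubiquinone, rose from 57.6 ± 2.37 to 70.0 ± 2.25 CPM (0.28), NDUFB1 from 19.6 ± 1.17 to 23.8 ± 0.348 CPM (0.28) and NDUFB2 from 47.6 ± 2.10 to 56.8 ± 2.05 CPM (0.26). None of these 3 overlapped between the groups. NDUFC2-KCTD14, a readthrough gene, had 136, 69 and 351 reads in shCtrl and 75, 0 and 3 reads in shNFKBIZ. It was not called (-2.86, SE 1.35, adjusted P = 0.135, edgeR), and 0.315% of its reads were unique, so that the division of reads between it and NDUFC2 is uncertain.

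Complex II, succinate dehydrogenase, is part of the citric acid cycle as well as of the respiratory chain, and its 4 genes divided. SDHD, a membrane anchor (chromosome 11, 112086824 to 112120016, plus strand), rose from 130, 127 and 135 CPM to 165, 154 and 164 CPM (0.30, SE 0.0391, adjusted P = 5.85e-07, edgeR). SDHC, its partner in the membrane, fell from 93.6 ± 0.866 to 80.6 ± 3.64 CPM (-0.22, SE 0.0415, adjusted P = 9.82e-05, edgeR). SDHB, the iron-sulfur subunit, fell from 69.4 ± 1.11 to 60.4 ± 3.30 CPM (-0.20, SE 0.0461, adjusted P = 0.000706, edgeR). SDHA, the flavoprotein, had 89.8 ± 3.12 against 95.4 ± 1.18 CPM and was not called (0.09, adjusted P = 0.0587, edgeR). SDHA was called in 5 of the 16 tested alternatives, among them the omission of shCtrl replicate 1 (adjusted P = 0.0385, edgeR). On unique exon reads, 21.6% of its reads, it was also called (0.15, adjusted P = 0.0395, edgeR). The groups did not overlap for any of the 4 genes.

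In complex III 2 of the core subunits were not called. UQCRFS1, the Rieske iron-sulfur protein, had 110.3 ± 4.16 against 112 ± 3.07 CPM (0.02, adjusted P = 0.706, edgeR), and UQCRC1, a core protein, had 194 ± 13.2 against 182 ± 2.66 CPM (-0.10, adjusted P = 0.0509, edgeR). UQCRC1 was called in 6 of the 16 tested alternatives. Among them were the omission of shCtrl replicate 3 (-0.15, adjusted P = 0.00185, edgeR) and unique exon reads (-0.10, adjusted P = 0.0298, edgeR). CYC1, the cytochrome c1 subunit, whose symbol is outside the rule for members, was higher (0.21, SE 0.0343, adjusted P = 1.26e-05, edgeR). The 3 called members encode small subunits. UQCRQ (0.24) and UQCR10 (0.19) were higher and UQCRH (-0.15) was lower.

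Complex IV had the lowest median log2 fold change of the nuclear genes. NDUFA4, now counted as a subunit of cytochrome c oxidase (chromosome 7, 10931943 to 10940153, minus strand), had 118, 116 and 123 CPM in shCtrl and 92.1, 87.8 and 91.2 CPM in shNFKBIZ (-0.40, SE 0.0394, adjusted P = 1.16e-08, edgeR). COX5A (chromosome 15, 74919791 to 74938083, minus strand) fell from 116 ± 4.48 to 91.4 ± 3.26 CPM (-0.35, SE 0.0412, adjusted P = 1.98e-07, edgeR). COX5B (-0.11), COX6C (-0.10) and COX7C (-0.12) were also lower but lost the call without shNFKBIZ replicate 1, COX5B also without shCtrl replicate 2, and COX6C also without shCtrl replicate 3 or shNFKBIZ replicate 2 and in DESeq2 (adjusted P = 0.0977). The falls in the nuclear genes and the falls in MT-CO1, MT-CO2 and MT-CO3 thus had the same direction, without being uniform, since COX8A rose (0.14, SE 0.0402, adjusted P = 0.00562, edgeR). COX8A was not called without shCtrl replicate 1 (adjusted P = 0.0625, edgeR).

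**Figure D4:**
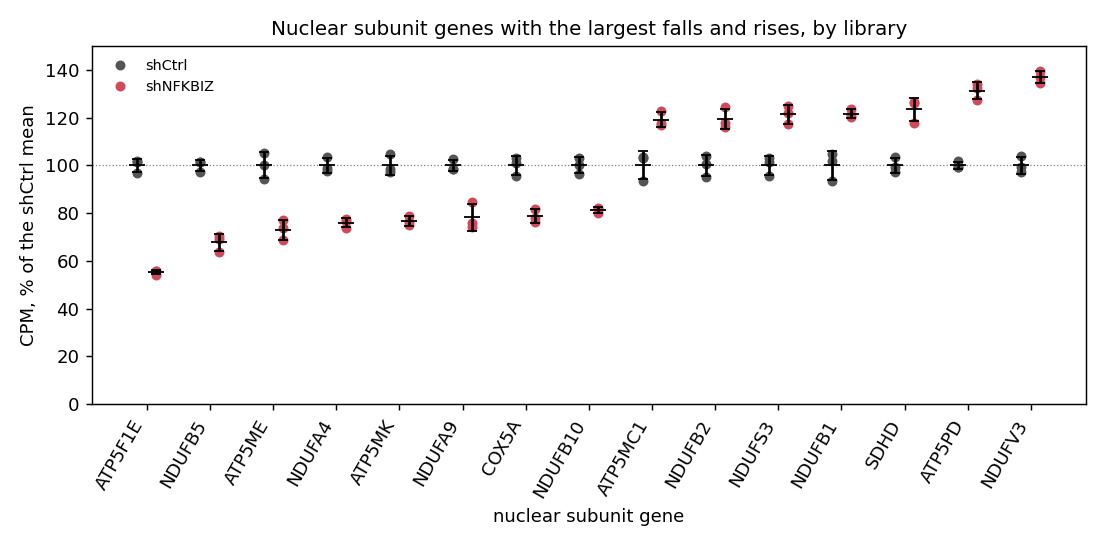
CPM as a percentage of the shCtrl mean (vertical axis) for the nuclear subunit genes with the largest falls and rises (horizontal axis), with points for libraries and bars for mean ± SD (n = 3). The groups do not overlap for any of the 15 genes, and ATP5F1E is lowest in shNFKBIZ, with a mean 44.7% below that of shCtrl.

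Several subunits of complex IV exist as isoforms that other tissues or conditions use. LOX-IMVI cells expressed the ubiquitous forms. COX4I1 had 233 ± 4.68 against 235 ± 7.82 CPM and was not called (0.01, adjusted P = 0.790, edgeR), while COX4I2, its lung and hypoxia-linked counterpart, had 0 reads in every library. COX6A2 and COX7A1, the heart and muscle forms, and COX7B2 also had 0 reads in every library, the testis form COX6B2 had at most 2 reads and COX8C at most 1. NDUFA4L2, a paralogue of NDUFA4 known as a hypoxia-inducible gene, had 7, 11 and 11 reads in shCtrl and 10, 11 and 15 reads in shNFKBIZ and was not called. Their ubiquitous counterparts COX6A1 (-0.05), COX6B1 (-0.08) and COX7B (0.10) were not called, COX7A2 was lower (-0.17, SE 0.0357, adjusted P = 0.000239, edgeR), and COX7A2L, a factor of supercomplex assembly, had a log2 fold change of 0.04 and was not called. COX6B1 and COX7B were called under some alternatives, among them the omission of shCtrl replicate 1 for COX6B1 and of shCtrl replicate 3 or shNFKBIZ replicate 2 for COX7B. At this depth no switch between tissue isoforms was detectable.

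Intron reads, which come mainly from unspliced RNA, were compared separately for the nuclear genes. Of 12119 genes tested on intron reads, 74 were nuclear subunit genes, of which 11 were higher and 2 were lower, against a background of 19.3% higher and 19.5% lower, or 38.8% in either direction. A 2-fold change on intron reads was called for 6.6% of all genes tested. The median intron log2 fold change was 0.12 over these 74 genes and 0.00817 over all genes tested. Intron reads made up 7.16% to 7.46% of the gene reads in shCtrl and 7.63% to 8.15% in shNFKBIZ, and the part of this difference in the intron results was not tested. Of the 27 members that were lower on exon reads and tested on introns, 3 were higher, 2 were lower and 22 were not called on intron reads. Whether a gene changed differently on exons and introns was not tested.

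The genes with the largest falls had no called fall in their intron reads, which were few in some of them. Among the 8 nuclear genes that fell most on exon reads, the intron log2 fold change was above 0 in all 8, and none was called by edgeR or reached an unadjusted P under 0.05. The intron value was likewise above 0 in all 8 genes that rose most on exon reads, of which 2 were called higher. ATP5F1E had 12, 14 and 13 intron reads in shCtrl and 13, 15 and 15 in shNFKBIZ, and NDUFB5 had 84, 69 and 77 against 99, 119 and 80. ATP5MK had 125, 132 and 132 against 143, 148 and 144, with an intron log2 fold change of 0.07 (SE 0.107). With counts as low as in ATP5F1E (SE 0.319), a fall of the size seen in exon reads could be missed. The intron reads of ATP5F1A (0.49, SE 0.145, adjusted P = 0.00721, edgeR) and ATP5F1B (0.38, SE 0.110, adjusted P = 0.0054, edgeR) were higher although their exon reads were lower. For NDUFV3 and SDHD, exon and intron reads both rose (intron log2 fold changes of 0.51 and 0.43). The 2 genes lower on introns, NDUFV2 (-0.50, SE 0.0759) and COX7A2 (-0.40, SE 0.0993), were lower on exons too.

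**Figure D5:**
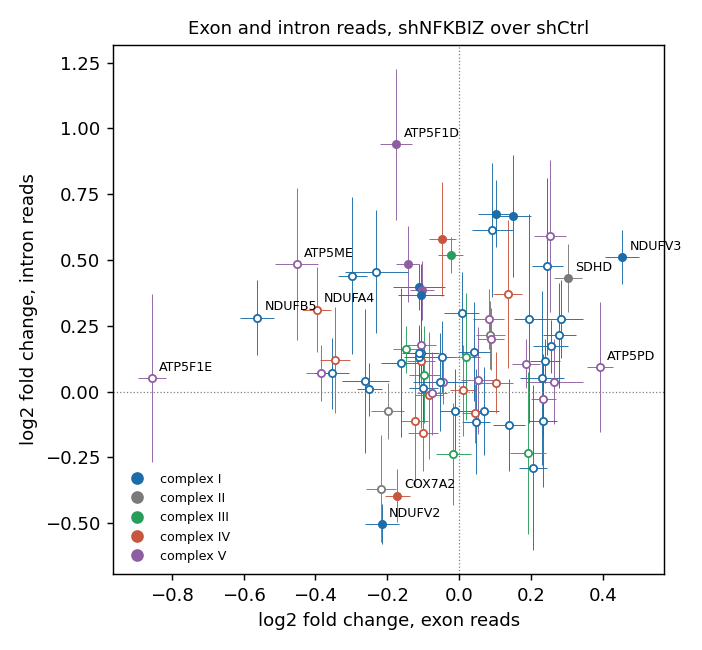
Log2 fold change on exon reads (horizontal axis) against log2 fold change on intron reads (vertical axis) for 74 nuclear subunit genes, with bars for SE, colours for complexes and filled points for genes called on intron reads. ATP5F1E, NDUFB5, ATP5ME and NDUFA4 lie left of 0 on exon reads and above 0 on intron reads, whereas NDUFV3 and SDHD lie above 0 on both.

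Many nuclear subunit genes are known for binding sites of NRF1, ETS family factors (GABP) and YY1 near their transcription start. Promoter sequences from 250 bases before to 50 after the start (RefSeq, GRCh38.p14) were matched for 69 of the 88 nuclear genes and searched on both strands. The NRF1 motif (GCGCA and GCGC with any 1 base between them) was found in 24.6% of the members, in 12.4% of the promoters of protein-coding genes tested and in 6.28% of all 27305 promoters. The ETS motif CCGGAAGT was found in 14.5%, 9.45% and 4.44%, and the YY1 motif AANATGGCG in 23.2%, 7.34% and 3.37%. Within the members, NRF1 matches were in 20% of the 20 that were higher, 15% of the 20 that were lower and 36% of the 25 that were not called. For ETS the same shares were 25%, 20% and 4%, and for YY1 15%, 30% and 28%. These are descriptions of letters in a window and show no binding.

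Matches were present on both sides of the comparison. They are shown, with the motif in capitals, for the most changed members that had one, to let rising and falling genes be set side by side. SDHD, NDUFS3 and ATP5PD were higher and ATP5ME, NDUFA9 and ATP5MK were lower in shNFKBIZ cells.
SDHD, NRF1, chr11:112086753-112086782, plus strand: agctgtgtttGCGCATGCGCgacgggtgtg
SDHD, ETS, chr11:112086785-112086812, plus strand: ccgcctctcgACTTCCGGttcacccagc
ATP5PD, ETS, chr17:75047054-75047081, minus strand: ccgggaagatACTTCCGGaaccagccct
NDUFS3, YY1, chr11:47579079-47579107, plus strand: gcatctgagtAACATGGCGgcggcggcgg
ATP5ME, NRF1, chr4:674476-674505, minus strand: cgcagcaactGCGCAGGCGCagccgatgat
NDUFA9, NRF1, chr12:4649024-4649053, plus strand: ttcttggttaGCGCTTGCGCagacaggcga
NDUFA9, YY1, chr12:4649114-4649142, plus strand: attgtgggaaAAGATGGCGgctgccgcac
ATP5MK, ETS, chr10:103396618-103396645, minus strand: tgcaattcttCCGGAAGTgtgggcgggc

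A 7-base sequence, GGAACTC, had marked falling genes in an earlier look at these libraries, so that its presence is given here as a description only. In canonical GENCODE transcripts it was found in 3 of the 80 tested nuclear members, or 3.75%, and in 19.9% of 11923 protein-coding genes tested. The members without it had a median transcript length of 758 bases, against 3078 bases for protein-coding genes without it. With it, the median length was 4199 bases for the members and 4801 bases for protein-coding genes. Of the 3 members with it, NDUFB5 and NDUFA9 were lower in shNFKBIZ cells and 1 was higher. Of the 2372 protein-coding genes with it, 48.3% were lower and 24.4% higher, against 32.7% and 34.9% of the 9551 without it. The part of transcript length in this difference was not tested. ATP5F1E, the gene that fell most, did not hold it. The sites of NDUFB5 and NDUFA9 are shown with the 7 bases in capitals and the coordinates of those bases on hg38.
NDUFB5, 3′UTR, chr3:179627179-179627185: cagatctctcaGGAACTCattgttgttag
NDUFA9, coding sequence, chr12:4687009-4687015: gcaacaccactGGAACTCaaggccattga
NDUFA9, 3′UTR, chr12:4692081-4692087: tgtctcaaaggGGAACTCaaataatttat

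The genes that act on the subunits were examined in 7 lists. Of 51 assembly factors, 24 were higher and 11 lower (median log2 fold change 0.07), and 2 of them changed by at least 2-fold. Over all genes tested 32.5% were higher, 32.8% were lower and 8.96% were past 2-fold, beside 47.1% and 21.6% of this list, and the same background applies to the lists that follow. ATPAF1, a chaperone for the F1 part of complex V, fell from 22.9, 21.7 and 21.3 CPM to 8.72, 7.20 and 9.75 CPM (-1.36, SE 0.0884, adjusted P = 1.32e-11, edgeR). CMC1, a factor in the early assembly of complex IV, fell from 16.2, 14.6 and 14.4 to 7.19, 5.78 and 6.06 CPM (-1.25, SE 0.0962, adjusted P = 1.9e-10, edgeR). LYRM7 and UQCC2, both factors of complex III, rose (0.91 and 0.77). Each of the 4 genes had no overlap between the groups.

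For mitochondrial DNA maintenance, transcription and RNA handling, 12 of 32 genes were higher and 6 lower (median 0.03). FASTKD3 and FASTKD1, of a family of mitochondrial RNA-binding proteins, fell (-0.80 and -0.53), as did TFAM, which packages mitochondrial DNA and activates its transcription (-0.41, SE 0.0479, adjusted P = 2.97e-07, edgeR). TFAM had 120, 108 and 123 CPM in shCtrl and 89.7, 83.2 and 90.1 CPM in shNFKBIZ. MGME1, a nuclease of mitochondrial DNA replication (0.66), MTERF4 (0.54), the RNA polymerase POLRMT (0.22) and LRPPRC, which stabilises mitochondrial mRNA (0.17), rose. LRPPRC's partner SLIRP was not called (-0.10, adjusted P = 0.0723, edgeR). TFAM, FASTKD3 and the mitochondrial mRNAs changed in the same libraries, and the part of these genes in the changes of the mRNAs was not tested.

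Of 78 mitochondrial ribosomal proteins, 30 were higher and 16 lower (median 0.07), from MRPS27 (-0.74) and MRPL3 (-0.43) to MRPL24 (0.53) and MRPL46 (0.58). Of 13 genes of the citric acid cycle, 8 were lower and 2 higher (median -0.17), beside the background of 32.8% lower. DLD, the lipoamide dehydrogenase shared by several dehydrogenase complexes, fell from 125 ± 6.21 to 63.1 ± 1.31 CPM (-0.99, SE 0.0431). IDH3G (0.37) and MDH2 (0.17) rose.

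Among 19 genes for mobile carriers, further subunits and nucleotide exchange, 8 were higher and 9 lower (median 0.11). SLC25A5, the adenine nucleotide translocator that exports ATP from the matrix, fell from 500.2, 522 and 492 CPM to 268, 269 and 273 CPM (-0.90, SE 0.0334, adjusted P = 6.65e-16, edgeR). SLC25A3, the phosphate carrier that supplies the ATP synthase, fell from 798 ± 13 to 521 ± 17.1 CPM (-0.62, SE 0.0334). Of the ubiquinone pathway, PDSS1 (0.66) and COQ8A (0.56) rose. Of 10 tested regulators of subunit genes, 3 were higher and 4 lower (median -0.09), with TFEB (-1.32) and MYC (-0.51) falling most and GABPB2 (0.24) and PPRC1 (0.23) rising most. NRF1 itself was not called (-0.11, adjusted P = 0.124, edgeR). Of 13 genes that follow mitochondrial abundance, 3 were higher and 6 lower (median -0.06), with VDAC2 (-0.52) and CS (-0.31) lowest and TIMM44 (0.30) and TOMM40 (0.19) highest.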

How the data were processed

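RNA-seq libraries of LOX-IMVI cells (3 shCtrl, 3 shNFKBIZ) were grouped by their titles. The authors mapped reads to hg38 (Ensembl) in CLC Genomics Workbench with default settings, without strand and with up to 10 hits per read, and deposited whole-number counts of exon and gene reads per gene, total and unique. The deposited TPM values could be rebuilt from exon reads and exon lengths, with a largest difference of 4.98e-07. Sample labels and methods name different sequencing providers, and none is given here. Of the gene identifiers 99.97% were in GENCODE release 44 and 100 of 101 members had the same coordinates there.

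Total exon counts were tested with edgeR 4.0.16 in R 4.3.3 (filterByExpr, 13843 genes, TMM factors, glmQLFit with robust estimation, glmQLFTest, two-sided, no replicate block), with P adjusted by Benjamini-Hochberg across all 13843. The same fit was run on intron counts (gene minus exon reads). CPM values were scaled with TMM factors. The fit was tested on simulated counts of shNFKBIZ against shCtrl (13694 genes). It recovered 96.0% of 100 genes changed by a log2 of 1 and 66.0% of 100 changed by 0.3, and called 15 unchanged genes. No other genes were changed in the simulation, whereas 65.3% of the genes tested were called in the data. These rates therefore may not carry over to the data. The depth per library was 22264473 to 24624839 exon reads. Replicates were not copies of each other (chi-square over its degrees of freedom 1.69 to 4.38).

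The members follow from symbols and chromosome alone, but this set of genes, the other gene lists and the tests were chosen with earlier results of these data known. Named genes were the mitochondrial mRNAs, members past 2-fold, the 8 largest nuclear rises and falls among called genes with a mean of at least 50 reads, isoform and catalytic subunits, NFKBIZ, and the 2 largest called changes per direction of each related list. Other genes were named after their values had been seen. A gene named by this rule and a sequence site are not reported here. TBRG4 and FASTKD4 are the same gene and were counted once. Members with under 90% unique reads (18 of 93) share reads with other genes or pseudogenes. On unique reads 16 of them could be fitted, and 13 kept their call or lack of one.

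Alternatives were RLE factors, library size alone, scaling without mitochondrial genes, removal of the 10 most abundant genes, other filters, DESeq2 1.42.0, unique exon reads, total gene reads, a replicate block, leaving out each library, and removal of trends on exon length and GC content. Lengths of canonical transcripts, the naming of members by unique reads, and shares of the 13 mitochondrial mRNAs were added after the data were seen.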

Additional observations from a re-analysis of the deposited data

How the results depend on the processing

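Across the 16 tested alternatives (15 for genes that 1 of them removed), 17 of the 22 nuclear genes called higher and 14 of the 28 called lower kept their call in each, and all 50 kept their direction. Both mitochondrial genes called higher and 3 of 5 called lower kept their call. MT-CO1 and MT-ATP6 lost it with library size alone (adjusted P = 0.0952 and 0.162, edgeR) and without shCtrl replicate 2. Library size alone gave 36 nuclear genes higher and 14 lower (72% of calls higher, against 44%, and 60.8% against 49.7% over all genes), 3 mitochondrial genes lower, and median log2 fold changes of 0.094 for all genes, 0.070 for nuclear genes, 0.097 for complex I, 0.034 for II, 0.075 for III, 0.0068 for IV and 0.029 for V. UQCRB turned to 0.078. Without the 10 most abundant genes, 4 of them mitochondrial members, 1 mitochondrial gene was higher and 3 were lower. With no filter the median of all genes was -0.0035. Removing the trend on exon length gave medians of -0.16 for complex IV and -0.10 for complex V, and removing it with GC content gave -0.070 for nuclear genes, -0.044 for complex I, -0.16 for IV, -0.091 for V and -0.0050 for all genes.

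Leaving out 1 library at a time gave 2 to 4 mitochondrial genes higher (4 without shNFKBIZ replicate 2), 3 to 6 lower (3 without shCtrl replicate 2), and medians of -0.041 to -0.019 for nuclear genes and -0.014 to 0.048 for complex I. With canonical lengths, median TPM in shCtrl was 152, 81.6, 369 and 248 for nuclear complexes I, III, IV and V, and 3991, 4770, 9991 and 10426 for mitochondrial complexes I, III, IV and V.

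The replicate numbers did not pair the libraries (correlations of deviations 0.0206, 0.0564 and 0.0292). With a replicate block 25 nuclear genes were higher and 31 lower, and 2 and 5 mitochondrial genes. Genes with few reads, among them NDUFC2-KCTD14 and the intron reads of ATP5F1E, were limited by depth.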
